A study of Mus musculus with 3 samples.

Results

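The cells described here were tumor-infiltrating CD8+ T cells in which a second T cell receptor beta segment, *Trbv13-1*, was captured beside the transgenic one, *Trbv14*. They were chosen as cells with 5000 to 120000 UMIs, at most 20% of UMIs from mitochondrial genes, at least 1 UMI of *Trbv13-1* and at least 1 UMI of *Trbv14*, where UMIs count captured RNA molecules. Of 31026 cells in the deposited matrices, 26899 met the limits on depth and mitochondrial share, and 3071 of these carried both segments. *Trbv14* without *Trbv13-1* was found in 23203 cells, and *Trbv13-1* without *Trbv14* in 33 cells.

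The study compared cytokines in adoptive transfer of pmel T cells, CD8+ cells from a T cell receptor (TCR) transgenic mouse that recognise the gp100 antigen of B16F10 melanoma. Pmel cells that carried Thy1.1 were first cultured with the peptide and a cytokine, then given to irradiated C57BL/6 mice bearing B16F10 tumors, and the mice were dosed with cytokine. The 3 groups were sIL-2 (an IL-2 with high affinity for the IL-2 receptor beta chain, in culture and *in vivo*), IL-2/21-Trikine (sIL-2 linked to a non-signaling IL-21 that recruits the IL-21 receptor, in culture and *in vivo*) and sIL-2 + IL-21 (both cytokines in culture, sIL-2 alone *in vivo*). Tumors were taken on day 18, and their live Thy1.1+CD8+ cells were sorted and sequenced as 1 library per group. Where 3 values follow each other below, they stand in the order of these groups. All groups used T cells of the transgenic mouse and irradiated hosts, and each of the 3 libraries came from mice given a cytokine. With 1 library per group no test between treatments was made, and the number of mice behind a library is not given in the sources used here.

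A T cell receptor beta chain is made by joining a V, a D and a J segment in front of a constant segment, *Trbc1* or *Trbc2*. A productive beta chain normally stops rearrangement of the other allele, so a T cell shows a single beta chain, and a transgene does this early in development. V segments that have not been joined can still be transcribed at low level from their own promoters. The pmel receptor uses the V segment now called *Trbv14*, an older name of which is Vβ13, so that *Trbv13-1*, formerly Vβ8.3, is a different gene in spite of the number.

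In the order of the locus, 4 V genes (*Trbv12-2*, *Trbv13-2*, *Trbv12-3* and *Trbv13-3*) lie between *Trbv13-1* and *Trbv14*. The V exons of both genes are shown because the whole selection rests on telling their transcripts apart. They were read from GENCODE M21 transcripts (GRCm38), 5′ to 3′ on the coding strand, and the capitals mark the longest run of bases that the exons share:
Trbv13-1: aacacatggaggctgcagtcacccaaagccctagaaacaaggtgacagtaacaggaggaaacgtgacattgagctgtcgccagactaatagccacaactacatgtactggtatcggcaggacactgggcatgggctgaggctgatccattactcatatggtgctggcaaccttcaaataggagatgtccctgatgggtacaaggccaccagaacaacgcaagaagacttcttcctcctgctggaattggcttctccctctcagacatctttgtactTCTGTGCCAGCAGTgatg
Trbv14: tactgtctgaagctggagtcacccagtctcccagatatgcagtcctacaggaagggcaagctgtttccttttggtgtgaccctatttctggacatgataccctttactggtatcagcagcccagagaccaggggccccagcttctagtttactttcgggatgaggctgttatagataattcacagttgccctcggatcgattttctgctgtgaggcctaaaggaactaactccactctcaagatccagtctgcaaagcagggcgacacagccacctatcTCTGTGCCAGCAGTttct
The *Trbv13-1* exon has 294 bases and the *Trbv14* exon 297. In a global alignment, 161 of 305 columns (52.8%) were identical, and the shared run in capitals had 14 bases, near the 3′ end. None of the 265 windows of 30 bases in *Trbv13-1* occurred in *Trbv14*. Its closest relatives were *Trbv13-2*, identical in 88.8% of columns with a longest shared run of 31 bases, and *Trbv13-3*, identical in 86.1% with a run of 34 bases. Of the 265 windows of 30 bases in *Trbv13-1*, 2 also occurred in *Trbv13-2* and 5 in *Trbv13-3*, and of its 205 windows of 90 bases none occurred in either. A read confined to one of those few stretches could not be assigned to a single gene by its sequence. The files give counts per gene, so whether a UMI came from a spliced receptor transcript or from an unjoined segment was not tested.

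The cells within the limits numbered 7279 in the sIL-2 library, 10729 in the IL-2/21-Trikine library and 8891 in the sIL-2 + IL-21 library. They held 129093287, 161977744 and 165583323 UMIs, with a median of 13631, 12260 and 15421 UMIs per cell in the same order. Barcodes shared between pairs of libraries numbered 18 to 43, at most 0.436% of a library, and 1 *Trbv13-1* cell barcode was shared by 2 libraries. The T cell identity of the sort was checked on markers. Among *Trbv13-1* cells, *Cd3d* was found in 100%, 99.9% and 99.8% of cells, *Cd8b1* in 99.3%, 99.1% and 99.2%, and *Trbc2* in 100% of cells of each library. *Thy1* was found in 84.4%, 80.0% and 83.9%, and *Cd4* in 0.751%, 0.185% and 1.30%. The label of T cells held in these markers.

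*Trbv14* was found in 97.8%, 97.5% and 97.8% of cells of the 3 libraries. Its level was 537, 501 and 451 CPM, the usual scaling of a gene's UMIs to the UMIs of the library. *Trbv13-1* came next among the 35 Trbv genes, with 1212, 1190 and 1027 UMIs, at 9.39 CPM with sIL-2 (95% Poisson interval 8.87 to 9.93), 7.35 with IL-2/21-Trikine (6.94 to 7.78) and 6.20 with sIL-2 + IL-21 (5.83 to 6.59). That was 1.75, 1.47 and 1.37 *Trbv13-1* UMIs per 100 *Trbv14* UMIs. The third Trbv gene, *Trbv12-2*, had 44, 47 and 106 UMIs, and *Trbv13-2*, the relative of *Trbv13-1*, had 27, 21 and 56. Each of these was present in at most 1.12% of cells with *Trbv14*. The plot of Trbv genes therefore has 3 steps, with the transgenic segment, *Trbv13-1* and all the other segments far apart.

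**Figure D1:**
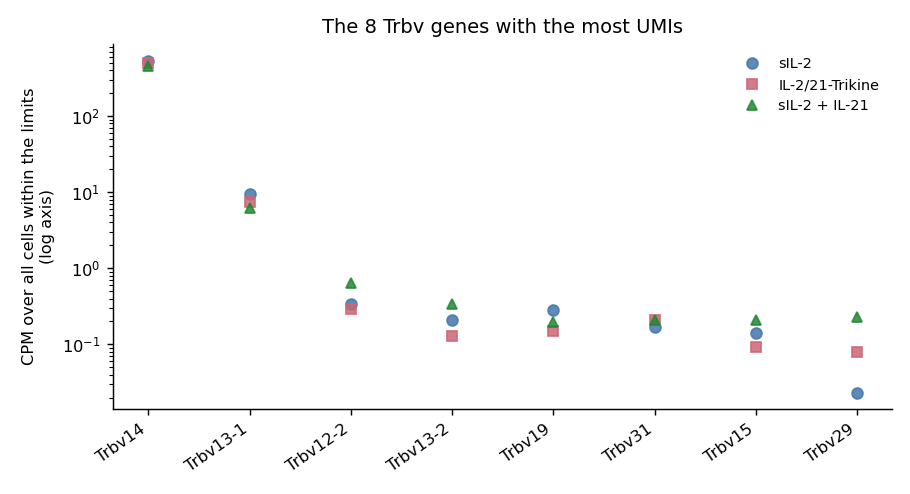
The 8 Trbv genes with the most UMIs, with the level in CPM over all cells within the limits on a log axis and 1 point per library. *Trbv14* lies at 451 to 537 CPM, *Trbv13-1* at 6.20 to 9.39 CPM, and the next gene, *Trbv12-2*, at 0.290 to 0.640 CPM.

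The share of *Trbv14* cells with a *Trbv13-1* UMI, which the selection itself fixes, was 15.0% with sIL-2 (exact 95% interval 14.1 to 15.8; 1066 of 7121 cells), 10.3% with IL-2/21-Trikine (9.76 to 10.9; 1081 of 10462) and 10.6% with sIL-2 + IL-21 (9.99 to 11.3; 924 of 8691). These intervals cover counting error only. After each cell was thinned at random, in a single draw, to 5000 UMIs, 6500, 9509 and 7629 cells still held *Trbv14*. The shares among them were 5.40%, 3.87% and 3.66%. Thinned to 10000 UMIs (leaving out 2140, 3907 and 2303 shallower cells), 5023, 6651 and 6354 cells held *Trbv14*, with shares of 9.20%, 6.90% and 6.64%. The sIL-2 library had the highest share in all 3 forms. The order of the other two libraries turned with thinning, and before it the value of each lay within the interval of the other.

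Most *Trbv13-1* cells held a single molecule. Exactly 1 UMI was seen in 89.1% of them in the sIL-2 library, 92.1% in the IL-2/21-Trikine library and 90.5% in the sIL-2 + IL-21 library, and the most in any cell was 6, 4 and 4 UMIs. At least 2 UMIs were seen in 116, 85 and 88 cells, and at least 3 in 13, 6 and 7. If the *Trbv13-1* UMIs of each depth class had been spread evenly over its *Trbv14* cells in proportion to their UMIs, the Poisson formula would give 978, 1027 and 893 cells with 1 UMI, where 950, 996 and 836 were observed. The same formula gives 106, 70.9 and 62.0 cells with at least 2 UMIs. The variance of *Trbv13-1* UMIs per cell was 1.09, 1.06 and 1.09 times their mean. *Trbj2-7*, a J segment of similar abundance, had ratios of 1.27, 1.13 and 1.13. No cell held more than 6. Cells with 2 or more numbered 116, 85 and 88 beside the 106, 70.9 and 62.0 of the formula, with no counting error attached. These values are a description, since *Trbv13-1* was used to choose the cells.

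The *Trbv13-1* cells were deeper than the rest, with medians of 17523.5, 15935 and 18530 UMIs against 13349, 12177 and 15267 in *Trbv14* cells without it. The share was higher in deeper cells in each library. In the sIL-2 library it went from 8.88% at 5000 to 10000 UMIs to 31.7% at 40000 and above, in the IL-2/21-Trikine library from 6.71% to 23.0%, and in the sIL-2 + IL-21 library from 5.71% to 16.9%. The level in the same cells went the other way, from 11.9 to 6.91 CPM, from 9.38 to 4.76 CPM and from 7.94 to 3.67 CPM. *Trbv14* was also lower in CPM in the deepest cells, at 396, 351 and 316 CPM against 578, 567 and 607 CPM at 5000 to 10000 UMIs. Within the limits, the ratio of the segments moved less than either level, between 1.62 and 2.01 *Trbv13-1* UMIs per 100 *Trbv14* UMIs in the sIL-2 library, 1.35 and 1.65 in the IL-2/21-Trikine library, and 1.16 and 1.52 in the sIL-2 + IL-21 library. Just below the lower limit, at 4000 to 5000 UMIs, the share was 5.56%, 4.27% and 3.43% (4 of 72, 15 of 351 and 8 of 233 cells). Just above it, at 5000 to 6000, the share was 2.79%, 4.34% and 5.47% (5 of 179, 27 of 622 and 18 of 329). With so few cells, no direction across the limit is read from these values.

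**Figure D2:**
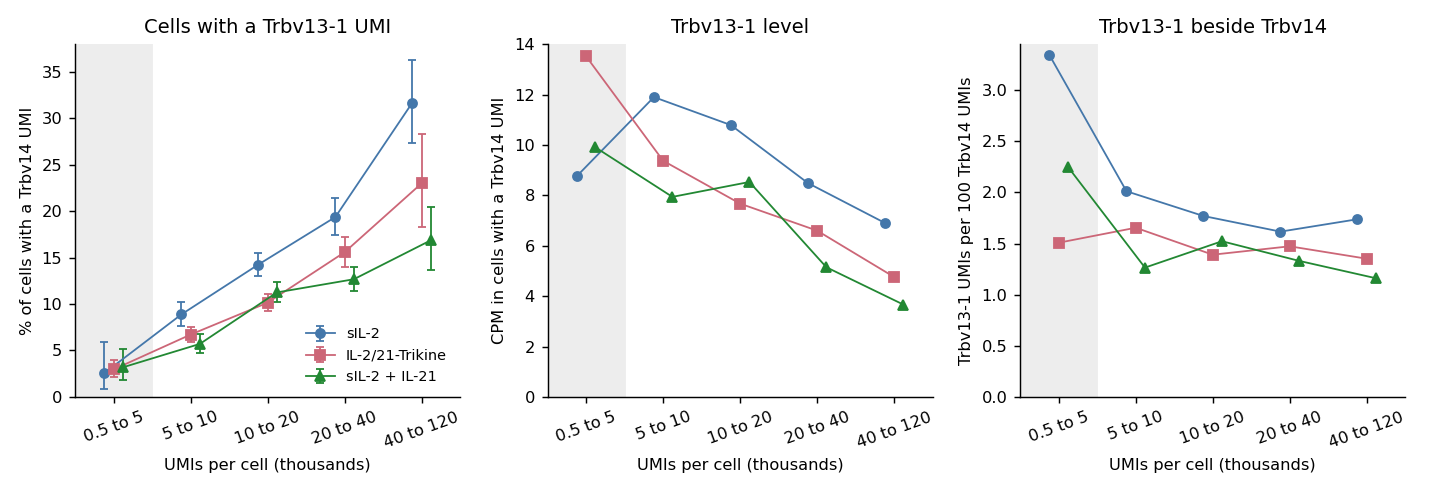
*Trbv13-1* by UMIs per cell in the 3 libraries: the share of *Trbv14* cells with a *Trbv13-1* UMI with exact 95% intervals (left), the level in CPM in those cells (middle) and the *Trbv13-1* UMIs per 100 *Trbv14* UMIs over all cells of the class (right). The gray band marks cells below the limit of 5000 UMIs, and above it the share is higher in deeper cells, up to 31.7% in the sIL-2 library, while the level is lowest in the deepest class of each library.

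How *Trbv13-1* and *Trbv14* went together within cells is a description, since both were used to choose cells. At 10000 to 20000 UMIs, cells with 1 to 3 *Trbv14* UMIs held *Trbv13-1* in 12.2%, 7.20% and 11.4% of cells, and cells with 12 or more in 17.6%, 12.8% and 13.0%. Between them, cells with 4 to 7 held it in 13.4%, 9.87% and 8.99%, and cells with 8 to 11 in 13.4%, 10.4% and 13.0%, so that the sIL-2 + IL-21 library had its lowest share at 4 to 7. The median depth of these classes also differed, from 12339, 12627 and 12848 UMIs to 15476, 15308 and 15070. In cells without any *Trbv14* UMI, *Trbv13-1* was still found in 6.33% (exact 95% interval 3.08 to 11.3; 10 of 158), 6.37% (3.75 to 10.0; 17 of 267) and 3% (1.11 to 6.42; 6 of 200), at a median depth of 7823, 6690 and 6807.5 UMIs. At 5000 to 10000 UMIs, cells without *Trbv14* held *Trbv13-1* in 4.42%, 6.19% and 2.42%, from 5, 14 and 4 cells. *Trbv14* cells of that depth held it in 8.88%, 6.71% and 5.71%.

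Free RNA can place a UMI in a cell that does not make the transcript, so the share in cells that should lack a receptor was sought. Only 3 cells had at least 10 UMIs of a myeloid list and no *Cd3d*, *Cd3e* or *Cd3g* UMI. None of them held *Trbv13-1*, which allows a share of up to 70.8% (exact interval), or *Trbv14*, at a median of 9055 UMIs. Cells with at least 10 myeloid UMIs, whatever their Cd3 UMIs, numbered 62, of which 95.2% had a Cd3 UMI, and 7 held *Trbv13-1* (11.3%, 4.66 to 21.9). The background of *Trbv13-1* from free RNA could thus not be measured at this number of cells, and its part in the shares was not tested.

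For all other genes, each *Trbv13-1* cell was paired with the *Trbv14* cell without *Trbv13-1* of nearest depth in the same library, and UMIs were summed over each class. This used 1065, 1081 and 924 pairs, with medians of 17507, 15935 and 18530 UMIs against 17500, 15935 and 18527.5. The share of mitochondrial UMIs was also alike, with medians of 1.28%, 1.33% and 1.37% against 1.30%, 1.34% and 1.35%. The 10% of cells with the highest Scrublet score, a measure of likeness to doublets, held 13.8%, 15.3% and 13.6% of *Trbv13-1* cells and 11.6%, 11.7% and 12.01% of the paired cells. The 6 sums were tested with edgeR's quasi-likelihood test with library as a block, which asks for a shift that the 3 libraries share. The libraries differ in treatment, so the block takes up the treatment.

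Receptor genes came first. In *Trbv13-1* cells and paired cells, *Trbv14* stood at 538 and 509 CPM in the sIL-2 library, at 508.5 and 481 in the IL-2/21-Trikine library, and at 464 and 429.5 in the sIL-2 + IL-21 library. These values are a description, since *Trbv14* was used to choose the cells. The log2 ratio was 0.08, 0.08 and 0.11, and against all *Trbv14* cells without *Trbv13-1*, with no matching on depth, it was -0.022, 0.0033 and 0.028. *Trbc2*, the constant segment that carried most of the beta chain UMIs, had 11708, 11197 and 9838 CPM in *Trbv13-1* cells against 11503, 11025 and 9574. Its log2 ratio was 0.01 ± 0.01 (SE, edgeR adjusted p = 0.736). *Trbc1*, the other constant segment, had 0.03 ± 0.02 (SE, edgeR adjusted p = 0.749), and *Trac*, the constant segment of the alpha chain, 0.01 ± 0.02 (SE, edgeR adjusted p = 0.937). None of the 3 constant segments was called.

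Of 36 receptor segment genes tested besides *Trbv13-1* and *Trbv14*, edgeR called 0, with 4 at an unadjusted p under 0.05, and DESeq2 called 0. Over all genes tested, 0.0965% were called by edgeR and 9.41% had an unadjusted p under 0.05, which is the background for these counts. The smallest edgeR adjusted p among them was 0.280, for *Trav5-4*, an alpha V segment at 0.898, 0.777 and 0.679 CPM in *Trbv13-1* cells against 0.409, 0.340 and 0.291 in the paired cells. *Trbj2-7* had 12.8, 9.66 and 8.05 CPM against 13.9, 8.31 and 6.89, a log2 ratio of 0.05 ± 0.09 (SE, edgeR adjusted p = 0.910). A UMI of any of the other 33 Trbv genes was seen in 3.47%, 1.76% and 3.25% of *Trbv13-1* cells and in 1.502%, 1.30% and 4.65% of the paired cells. The exact intervals of sIL-2 did not overlap (2.46 to 4.76 against 0.861 to 2.43), while those of the other libraries did. These intervals cover counting error over cells of 1 library only, and the order was the opposite in the sIL-2 + IL-21 library. *Trbv12-2*, the V gene nearest to *Trbv13-1* on the side of *Trbv14*, gave 11 UMIs against 1 in the sIL-2 library, 6 against 2 in the IL-2/21-Trikine library and 10 against 17 in the sIL-2 + IL-21 library. Of the lymphocyte genes of V(D)J recombination there were 0 UMIs of *Rag1* and *Rag2*, the recombinase, in either class, and 1 UMI of *Dntt*, which adds bases at the joints, in *Trbv13-1* cells against 5. The 5 repair and joining genes of the list that could be tested had 0 calls by edgeR and by DESeq2 and none at an unadjusted p under 0.05. *Dclre1c*, which opens the hairpins at the joints, had the highest level of the list, with 35.4, 36.7 and 43.2 CPM against 37.3, 32.1 and 43.4.

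Across the transcriptome, few genes separated the classes. Of 12437 genes tested, edgeR called 12 at an adjusted p under 0.05, which is 0.0965%. Of these, 2 were higher in *Trbv13-1* cells (0.0161%) and 10 were lower (0.0804%). At an unadjusted p under 0.05 there were 1170 genes, and DESeq2 called 2, *Il2* and *Gzmc*. The size of the changes ran from 0.07 to 0.74 on the log2 scale with a median of 0.15, and 11 of the 12 genes had the same sign in each library, as had 31.0% of all genes tested, where the test itself favors genes whose libraries shift together. Without TMM scaling there were 6 calls, 3 of them lower. No call was left without the library block. When *Trbv13-1* cells were paired with other cells of like depth, which the first pairing had left unused, 26 genes (0.21%) were called, 10 higher (0.0806%) and 16 lower (0.129%). This second pairing found partners for 1041, 1080 and 924 *Trbv13-1* cells, so in the sIL-2 and IL-2/21-Trikine libraries the sums of both classes differed from the first. Of the 12 genes, 4 were called again (*Kcnq5*, *Il2*, *H2az1* and *Ifng*). All 12 had the same sign in both pairings, which share most of their *Trbv13-1* cells. For 8 of the 12 the log2 ratio was smaller by over 1.5 times in the second pairing, such as *Gzma* at -0.071 in place of -0.23, *Gzmc* at -0.041 in place of -0.12, *Actb* at -0.025 in place of -0.07, *Atp10a* at 0.08 in place of 0.14 and *Ifng* at -0.19 in place of -0.30. *Kcnq5* was at 0.14 in place of 0.16 and *Il2* at -1.04 in place of -0.74. Counts of called list genes below are read against 0.0965%, and counts at an unadjusted p under 0.05 against the 9.41% of all genes tested that had one.

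The genes called higher were *Kcnq5*, a voltage-gated potassium channel, and *Atp10a*, a phospholipid flippase. *Kcnq5* had 383, 286 and 234 CPM in *Trbv13-1* cells against 337, 262 and 199 in the paired cells, a log2 ratio of 0.16 ± 0.02 (SE, edgeR adjusted p = 0.00296). *Atp10a* had 226, 193 and 185 CPM against 208, 176 and 158, a log2 ratio of 0.14 ± 0.03 (SE, edgeR adjusted p = 0.0299). Both were above their pair in every library. Another 3 genes with a mean over the libraries of at least 20 CPM in either class, above their pair in every library, had larger ratios but were not called. *Farp1*, a regulator of small GTPases, had a log2 ratio of 0.25 ± 0.05 (SE, edgeR adjusted p = 0.0652), *Serpinb1a*, an inhibitor of serine proteases, 0.23 ± 0.05 (SE, edgeR adjusted p = 0.122), and *Serpina3g*, another serpin, 0.21 ± 0.06 (SE, edgeR adjusted p = 0.257). *Serpinb1a* was called higher in the second pairing described above (0.27, edgeR adjusted p = 0.0251).

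Among the genes called lower, the cytokines *Il2* and *Ifng* had the largest sizes. *Ifng*, interferon gamma, had 872, 576 and 617 CPM in *Trbv13-1* cells against 964, 765 and 756, a log2 ratio of -0.30 ± 0.03 (SE, edgeR adjusted p = 3.25e-05). With at least 2 *Trbv13-1* UMIs the ratio was -0.15 and not called, and with at least 3 it was 0.31. It was unevenly held, with the 10 cells richest in *Ifng* carrying 23.9%, 36.2% and 36.4% of its UMIs in *Trbv13-1* cells. *Il2* had 17.2, 11.1 and 16.3 CPM against 22.8, 23.5 and 28.1, a log2 ratio of -0.74 ± 0.09 (SE, edgeR adjusted p = 0.000153). Here 10 cells carried 85.3%, 88.7% and 96.1% of the UMIs in *Trbv13-1* cells, and only 4.98%, 3.05% and 2.49% of the cells had any. With at least 2 *Trbv13-1* UMIs the log2 ratio of *Il2* was 2.65 and called higher, and without the 10% highest Scrublet scores it was 0.20 and not called, both in the opposite direction. *Xcl1*, a chemokine, had 3715, 4135 and 3131 CPM against 4381, 4762 and 3057, a log2 ratio of -0.15 ± 0.03 (SE, edgeR adjusted p = 0.0322), and was above its pair in the sIL-2 + IL-21 library, without which the ratio was -0.24. Of 11 effector cytokine and chemokine genes 3 were called, all lower, and the list's median log2 ratio was -0.16 beside -0.00039 for all genes tested. All 11 had a log2 ratio below 0, and 8 had an unadjusted p under 0.05. By library the median was -0.058 in the sIL-2 library, -0.34 in the IL-2/21-Trikine library and -0.18 in the sIL-2 + IL-21 library. Medians by library, here and below, are of CPM ratios without TMM scaling, where all genes tested had 0.010, 0.015 and 0.020.

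Among 10 granzyme and perforin genes, 2 were called, both lower, and the median log2 ratio was -0.0025, with 5 genes above 0 and 5 below. By library the median was -0.062, 0.091 and -0.023, and in the second pairing it was 0.038. *Gzma* had 4103, 979 and 4636 CPM against 4340, 1339 and 4991, a log2 ratio of -0.23 ± 0.04 (SE, edgeR adjusted p = 0.0180). *Gzmc* had 2889, 2002 and 4906 CPM against 3016, 2150 and 5355, a log2 ratio of -0.12 ± 0.01 (SE, edgeR adjusted p = 0.000153). The *Gzmc* ratio was 0.16 and called higher without matching on depth, and -0.035 and not called with at least 2 *Trbv13-1* UMIs. Both granzymes were below their pair in every library. The *Gzma* ratio was -0.11 without the IL-2/21-Trikine library, and with at least 2 *Trbv13-1* UMIs it was -0.017 and not called. *Serpinb9b*, a serpin of the family that inhibits granzymes, had 254, 178 and 386 CPM against 313, 212 and 396, a log2 ratio of -0.21 ± 0.03 (SE, edgeR adjusted p = 0.00744). It was 0.15 with at least 2 *Trbv13-1* UMIs and 0.014 without matching on depth, and in the second pairing it was -0.12 and not called. The other 4 genes called lower were abundant and changed by little. *Dynll1*, a dynein light chain, had -0.10 ± 0.02 (SE, edgeR adjusted p = 0.0393), *H2az1*, a histone variant, -0.09 ± 0.02 (SE, edgeR adjusted p = 0.0322), *Actb*, beta-actin, -0.07 ± 0.01 (SE, edgeR adjusted p = 0.00296), and *S100a10*, an annexin partner, -0.07 ± 0.01 (SE, edgeR adjusted p = 0.0393). The calls of *Dynll1* and *S100a10* were lost in 16 of the 17 alternatives, and the other one, at most 10% mitochondrial UMIs, used the same cells. *H2az1* was called lower in 4 of the 17 alternatives, and its ratio was 0.081 without matching on depth.

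The edgeR error above rests on a dispersion moderated across genes, and for 9 of the 12 genes it was smaller than the standard error of the 3 library ratios themselves. That error was 0.12 for *Gzma*, 0.076 for *Ifng* and 0.086 for *Xcl1* (n = 3 libraries). A further error was taken over the cells of each class, for the ratio of CPM without TMM scaling. By it, the 95% interval of the log2 ratio left out 0 in all 3 libraries for 2 of the 12 genes, *Atp10a* and *Dynll1*. For 6 of the 12 it held 0 in every library, and these included *Ifng*, *Il2*, *Xcl1* and *Gzmc*. In the sIL-2 library, for example, *Ifng* had 872 ± 82.2 CPM against 964 ± 99.1 (SE over cells).

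**Figure D3:**
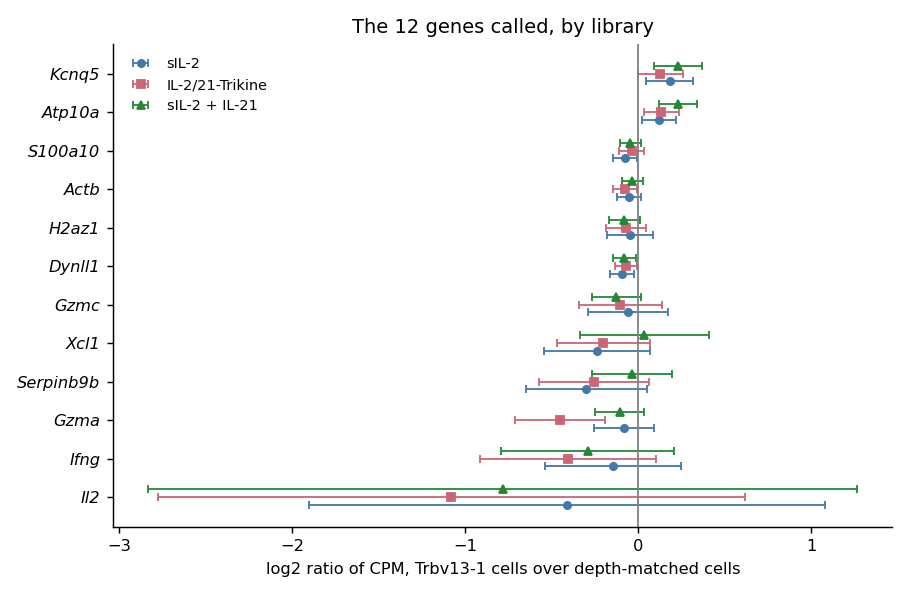
The log2 ratio of CPM, without TMM scaling, in *Trbv13-1* cells over depth-matched cells for the 12 genes called, with 1 point per library and bars for the 95% interval over cells. The bars of *Atp10a* and *Dynll1* leave out 0 in all 3 libraries, and those of *Il2* are the widest of the 12.

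Genes of the T cell receptor complex and its signals were compared next, and none was called. Of 10 complex genes, edgeR called 0, with 1 (*Cd8a*, a chain of the CD8 coreceptor) at an unadjusted p under 0.05, and the median log2 ratio was 0.0075. *Cd3g*, a CD3 chain, had 1490, 1362 and 1353 CPM against 1501, 1334 and 1326, and *Cd3d* had 739, 697 and 668 against 756, 675 and 656. Of 16 receptor-proximal signaling genes, 0 were called and 5 had an unadjusted p under 0.05, with a median of 0.034 and 15 of 16 above 0. In the second pairing that median was 0.030. By library, without TMM scaling, the list's median was 0.058, 0.063 and 0.059, beside 0.010, 0.015 and 0.020 for all genes tested. *Ptprc*, the CD45 phosphatase, had 1362, 1135 and 906 CPM against 1294, 1087 and 839 (log2 ratio 0.06 ± 0.02, SE, edgeR adjusted p = 0.172). Of 14 genes induced by antigen signals, 0 were called and 6 had an unadjusted p under 0.05, with a median of -0.012. *Tnfrsf9*, the costimulatory receptor 4-1BB, had 991, 741 and 754 CPM against 961, 742 and 721, and *Nr4a1*, a nuclear receptor induced by antigen, had 333, 170 and 156 against 343, 177 and 150. DESeq2 called no gene of these lists, nor of the lists in the next paragraphs.

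States of the T cells were described in the same way, and edgeR called 0 genes in each of the following lists. Their medians were small, and of the 21 lists with a median 11 had the opposite sign in the second pairing, so no direction is given for the lists that follow. In that pairing the median was -0.019 for G2 and mitosis genes, -0.10 for interferon response genes, -0.016 for stem and memory genes and -0.052 for heat shock genes. Inhibitory receptors had a median log2 ratio of 0.010 over 9 genes (1 at an unadjusted p under 0.05), and *Ctla4* stood at 519, 474 and 424 CPM against 518, 452 and 412. Stem and memory genes had 0.027 over 14 genes (5 at an unadjusted p under 0.05). *Bach2*, a repressor that keeps T cells quiescent, had 491, 452 and 273 CPM against 489, 414 and 227, a log2 ratio of 0.11 ± 0.03 (SE, edgeR adjusted p = 0.263), while by library the list's median was -0.051, 0.094 and 0.11. Interferon response genes had 0.042 over 12 genes (3 at an unadjusted p under 0.05) and were 0.12, -0.0039 and -0.026 by library, with *Isg15*, a ubiquitin-like protein induced by interferon, at 123, 99.5 and 40.2 CPM against 102, 99.96 and 38.3. S phase genes had -0.015 over 12 genes (2 at an unadjusted p under 0.05), and *Pcna*, the replication clamp, had 178, 227 and 224 CPM against 173, 220 and 220. G2 and mitosis genes had 0.068 over 12 genes (6 at an unadjusted p under 0.05), and *Top2a*, a topoisomerase of dividing cells, had 285, 444 and 398 CPM against 266, 442 and 369. Metallothioneins and zinc genes had 0.0036 over 4 genes and heat shock genes 0.016 over 8 genes (0 and 2 at an unadjusted p under 0.05). *Mt1* had 268, 223 and 976 CPM against 257, 215 and 1017, and *Hspa8*, a constitutive chaperone, had 1097, 1049 and 901 against 1066, 1011 and 912. Innate-like genes had -0.0098 over 8 genes (2 at an unadjusted p under 0.05), with *Klrd1*, a lectin-like receptor chain, at 1273, 969 and 928 CPM against 1284, 945 and 956.

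Markers of other cells were measured in both classes, and 0 of their genes were called by edgeR or DESeq2. The 8 gamma delta T genes in the files summed to 178, 103 and 73.9 CPM against 175, 103 and 80.8 (6 tested, 0 at an unadjusted p under 0.05), with *Trgc4* the most abundant in the sIL-2 library and *Trdc* above it in the others, and *Blk* at 0 in both classes. *Trdc* was found in 28.2%, 25.1% and 25.1% of *Trbv13-1* cells and 25.3%, 24.2% and 25.9% of paired cells. The 4 CD4 T genes summed to 28.6, 18.8 and 18.4 CPM against 29.9, 19.9 and 17.0, and the 4 invariant NKT genes to 94.4, 75.4 and 52.9 against 90.9, 71.3 and 55.4, with *Trav11* and *Trav11d* at 0 in both classes. *Zbtb16*, the transcription factor PLZF of innate-like T cells, had 3.59, 3.59 and 2.76 CPM against 2.70, 1.51 and 2.67, a log2 ratio of 0.51 ± 0.19 (SE, edgeR adjusted p = 0.373). The 14 myeloid genes summed to 16.6, 20.7 and 11.3 CPM against 17.6, 25.03 and 12.2, with *Cd68* the most abundant by mean CPM. The 6 that could be tested had a median log2 ratio of -0.33, with 1 above 0 and 5 below (2 at an unadjusted p under 0.05). Of the 6, *Il1b*, a cytokine, had 18, 85 and 9 UMIs against 46, 216 and 0 (log2 ratio -1.20 ± 0.26, SE, edgeR adjusted p = 0.0856). In a library, *Il1b* was found in at most 0.463% of *Trbv13-1* cells and 1.02% of paired cells. Another 8 myeloid genes were too scarce for the test, and over the 3 libraries they gave 178 UMIs in *Trbv13-1* cells against 89 in the paired cells. The spread of these UMIs over libraries and cells was not examined. Of the 8 genes, 7 had more UMIs in *Trbv13-1* cells, among them *Cxcl2*, a chemokine (79 against 43), *C1qa*, a complement gene of macrophages (19 against 6), *Adgre1*, the macrophage marker F4/80 (10 against 2), and *S100a8*, a gene of neutrophils and monocytes (12 against 3). *Csf1r*, the receptor of a macrophage growth factor, had 13 against 14. The part of myeloid RNA in the results was not tested, and without cells with 2 or more myeloid UMIs 5 of the 12 genes were called (*Kcnq5*, *Actb*, *Ifng*, *Gzma* and *Gzmc*). The 6 B cell genes gave 21.5, 33.6 and 10.8 CPM against 18.6, 32.2 and 8.87, most of it *Ighm*, and *Ms4a1* and *Pax5* were at 0 in *Trbv13-1* cells. The 5 NK cell genes gave 18.0, 9.95 and 9.94 CPM against 17.2, 11.3 and 10.5, the 6 melanoma genes 2.41, 3.30 and 2.38 against 3.11, 3.84 and 1.84, and the 5 erythroid genes 1.14, 0 and 0.0970 against 1.35, 0.0972 and 0.485. By mean CPM over the libraries and both classes, the most abundant were *Eomes*, *Mlana* and *Hbb-bs*, in this order of lists.

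**Figure D4:**
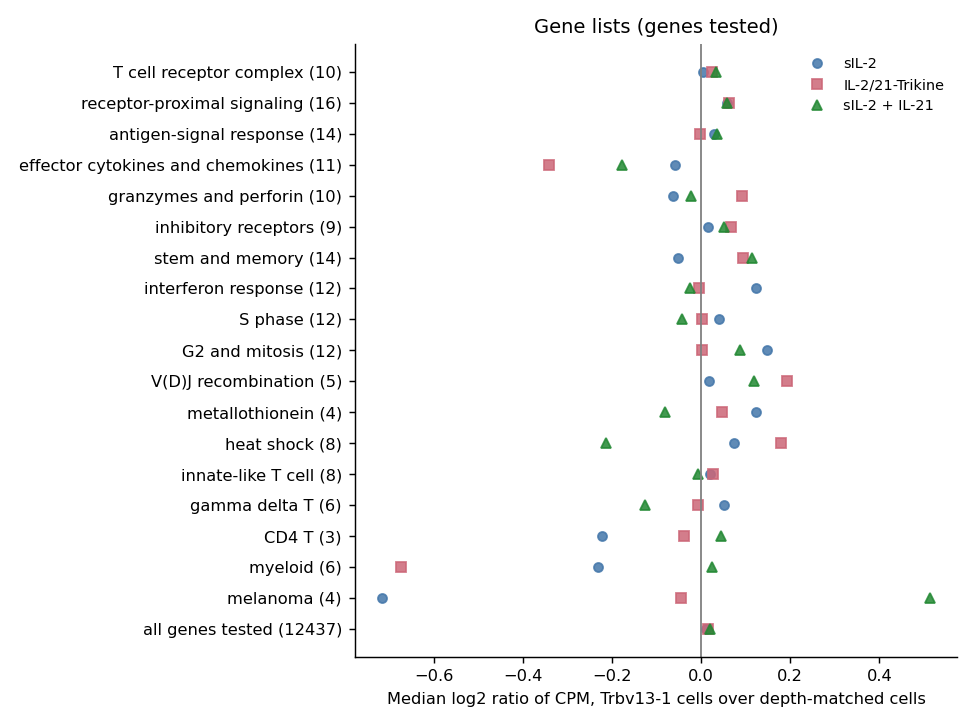
Median log2 ratio of CPM, without TMM scaling, in *Trbv13-1* cells over depth-matched cells for each list with at least 3 genes tested, with 1 point per library and the number of genes tested in parentheses. The 11 effector cytokine and chemokine genes have a median below 0 in each library (-0.12 over the libraries in the second pairing), and lists of few scarce genes, such as melanoma, scatter to both sides.

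A small shift over many genes ran along gene length. The lengths of the genes called above were not compared with it, so its part in those calls was not tested. Over 5531 genes with a mean of at least 20 CPM and a known length, 99.7% of the genes at that level, the Spearman correlation between gene length and the log2 ratio of *Trbv13-1* cells over paired cells was 0.20 in the sIL-2 library, 0.36 in the IL-2/21-Trikine library and 0.41 in the sIL-2 + IL-21 library, where genes are not independent replicates. In genes under 5 kb, the median log2 ratio was -0.0096, -0.019 and -0.025, and 42.8%, 32.4% and 29.9% of the 638 genes had a ratio above 0. In genes over 100 kb, the median was 0.036, 0.065 and 0.079, and 70.9%, 81.6% and 83.9% of the 735 genes had one. The median went up at each step of length in each library. *Malat1*, a long noncoding RNA held in the nucleus, had 3781, 3123 and 2239 CPM against 3682, 2921 and 2115. With the other paired cells, the correlation was 0.22, 0.32 and 0.32, from nearly the same *Trbv13-1* cells (1041, 1080 and 924 of them). The matrices count intronic reads, which add most to long genes, and the part of unspliced RNA in this shift was not tested.

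The same steps were run on cells with a *Trbj2-7* UMI, a segment chosen for its similar abundance after the values were seen. It had 1778, 1471 and 1217 UMIs, and 1404, 1278 and 1062 *Trbv14* cells held it, of which 252, 164 and 139 also held *Trbv13-1*. Against cells of like depth without it, edgeR called 1366 of 12779 genes (10.7%), 560 higher (4.38%) and 806 lower (6.31%). The Spearman correlation with gene length was 0.41, 0.47 and 0.46, and genes over 100 kb had a median log2 ratio of 0.11, 0.13 and 0.10. Of the 12 genes called in *Trbv13-1* cells, 10 had the same sign in that comparison and 2 the opposite one. *Ifng* had a log2 ratio of -0.21, *Gzmc* -0.12 and *Actb* -0.09, while *Il2* had 0.018, *Kcnq5* -0.034 and *Atp10a* 0.032, none of these last 3 called. *Serpinb1a* was called lower there (-0.27, edgeR adjusted p = 0.0387), opposite to its ratio in *Trbv13-1* cells. In all, 7 of the 12 were also called in *Trbj2-7* cells, and the median of the effector cytokine and chemokine list was -0.18 there, beside -0.16 in *Trbv13-1* cells. A shift along gene length was thus also present in cells chosen by another receptor segment, and a test between the choices of cells was not made.

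**Figure D5:**
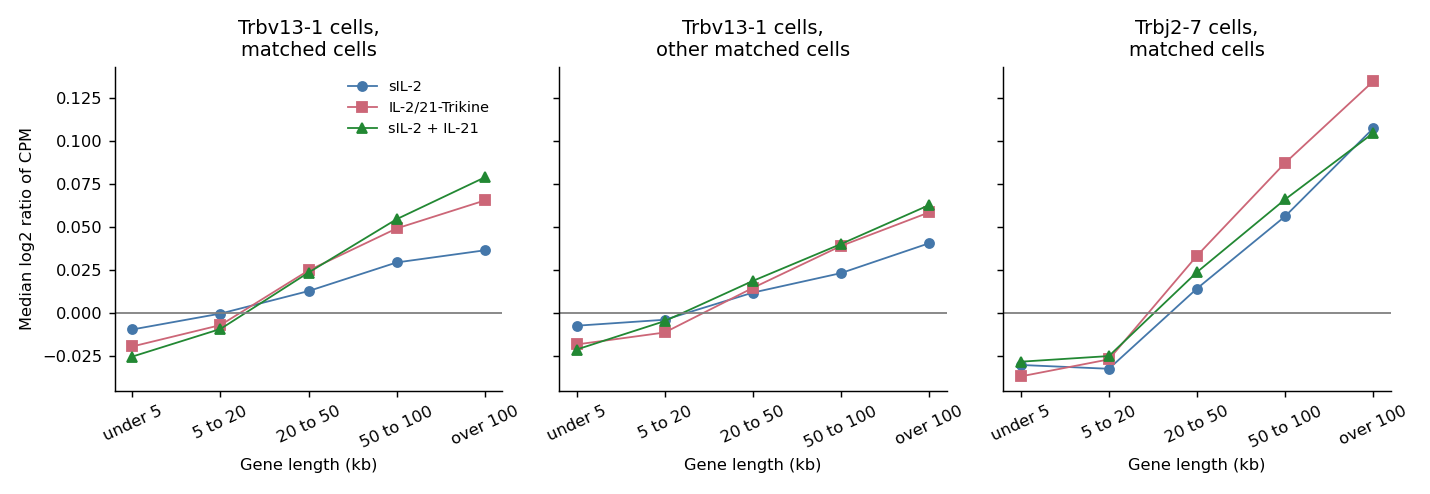
Median log2 ratio of CPM by gene length in kb, with 1 line per library, for *Trbv13-1* cells over their matched cells (left), over other matched cells (middle), and for *Trbj2-7* cells over matched cells (right). Each line runs from below 0 in genes under 5 kb to above 0 in genes over 100 kb, up to 0.079 for *Trbv13-1* cells in the left panel and 0.13 for *Trbj2-7* cells.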

How the data were processed

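The deposited values are UMI counts that the authors obtained with Cell Ranger from 10x 3′ libraries, intronic reads included, with no normalization. The submitters' processing notes name the build mm10, while the methods give a GRCm39 reference. The members, lists and tests were chosen with earlier results of these data known. Each *Trbv13-1* cell was paired within its library with the unused *Trbv14* cell of nearest UMI total within 10%, and 1 cell without a partner was left out. Summed counts were tested with edgeR 4.0.16 (quasi-likelihood, TMM, filterByExpr, Benjamini-Hochberg adjustment), with DESeq2 1.42.0 as an alternative. *Trbv13-1* and *Trbv14* chose the cells and were not tested. The edgeR error is the log2 ratio over the square root of the F statistic. Errors over cells are analytic errors of a ratio of sums. Named genes were receptor segments with at least 20 UMIs in *Trbv13-1* cells (at most 8 of a kind), the genes called at 20 CPM or more (filled up to 5 in a direction by uncalled genes of the same sign in 3 libraries), and the most abundant genes of 22 lists. *Malat1*, *Cd8a*, scarce myeloid genes chosen after their values were seen and genes at 0 are named outside this rule. Gene lengths came from GENCODE M21 (GRCm38) by gene ID and served only to rank genes. Scrublet from scanpy 1.11.5 marked 0.0515%, 19.8% and 0.0510% of cells as doublets, so the caller had not worked in 2 libraries, and its scores were used only by rank. The edgeR fit was run on simulated counts with planted changes, which were larger than most of the changes called here. Some genes of the lists are counted in them but not reported here by name.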

Additional observations from a re-analysis of the deposited data

Results flagged for a closer look

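*Trbv13-1* was also seen outside the cells compared. Below 5000 UMIs, cells with *Trbv14* and a *Trbv13-1* UMI numbered 5 in the sIL-2 library, 45 in the IL-2/21-Trikine library and 15 in the sIL-2 + IL-21 library. Within the limits, cells with a *Trbv13-1* UMI and no *Trbv14* UMI numbered 10, 17 and 6.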

How the results depend on the processing

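Which genes were called depended on the choices made. Against 12 calls, there were 22 with 3 comparison cells per *Trbv13-1* cell, 444 without matching on depth, 33 with at least 2 *Trbv13-1* UMIs, 2 by DESeq2, 6 without TMM factors, 7 at 10000 to 60000 UMIs, 5 without cells with 2 or more myeloid UMIs, and 26 with other matched comparison cells, an alternative chosen after seeing the data. The share of calls that were lower was 83.3%, against 50% without TMM and 37.6% without matching. edgeR called 0 genes without the filter on low counts (1124 at an unadjusted p under 0.05) and 0 without the library block (51), and DESeq2 called 2. Leaving out 1 library gave 17 to 31 calls, of which 7 or 8 were among the 12, with 20 without sIL-2, 31 without IL-2/21-Trikine and 17 without sIL-2 + IL-21. The causes were not tested. Of the called genes, *Gzma* reversed to 0.52, *Gzmc* to 0.11, *Ifng* to 0.31 and *Xcl1* to 0.33 with at least 3 *Trbv13-1* UMIs. Without matching, *Gzmc* reversed to 0.16 (called higher), *H2az1* to 0.081 and *Serpinb9b* to 0.014. With at least 2 UMIs *Serpinb9b* reversed to 0.15 and *Il2* to 2.65 (called higher), and without the highest Scrublet scores *Il2* reversed to 0.20. *Kcnq5*, *Atp10a*, *Actb*, *Dynll1* and *S100a10* kept their sign under each of these, but the calls of *Dynll1* and *S100a10* were lost in 16 of 17 alternatives, those of *Actb* and *Atp10a* in 10 and that of *Kcnq5* in 6.

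Calls among list genes were 5, against 9 with 3 comparison cells and 8 to 11 with 1 library left out, and calls among receptor segments 0, against 1 (*Trbc2*) with at least 2 *Trbv13-1* UMIs. The mean log2 ratio of *Trbv14* was 0.090, against 0.0033 without matching on depth and 0.21 with at least 2 UMIs. The share of cells with *Trbv13-1* became 5.40%, 3.87% and 3.66% when thinned to 5000 UMIs, 9.20%, 6.90% and 6.64% when thinned to 10000, and 1.63%, 0.812% and 1.01% with at least 2 UMIs. With IL-2/21-Trikine it was 9.40% at 500 to 120000 UMIs and 9.65% without the highest Scrublet scores. Treatments could not be paired or compared, with 1 library each. The comparison within libraries had library as a block, without which 0 genes were called. At 1 UMI in most *Trbv13-1* cells, cells without one may hold the transcript below detection.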
